A study of Mus musculus with 18 samples.

Results

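The 10 genes described here belong to the sensing of oxygen and the breakdown of glucose: the hypoxia-inducible factor (HIF) subunits Hif1a and Epas1, the oxygen sensor Egln3, the glucose transporter Slc2a1, the glycolytic enzymes Hk2, Pfkp, Pgk1 and Ldha, and the hypoxia-induced genes Car9 and Bnip3. They were chosen by name, and their transcripts were found by identifier among the 49184 genes with an estimated count. All 10 passed the filter on low counts, which left 21129 genes over 15 libraries and 21262 genes over all 18. Their estimated counts per library ran from 27 to 79 for Car9, the lowest, and from 4975 to 13818 for Ldha, the highest.

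Chondrocytes live in a tissue without blood vessels and draw much of their energy from glycolysis. HIF-1α, the protein of Hif1a, is made continuously and broken down where oxygen is plentiful, because prolyl hydroxylases of the Egln family mark it for destruction. Where oxygen is short it pairs with Arnt, binds DNA at the core letters ACGTG or GCGTG and raises glucose transporters, glycolytic enzymes and enzymes of collagen maturation. The level of the Hif1a transcript is therefore a different quantity from the activity of the factor.

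The libraries came from total RNA of femoral condyle cartilage of wild type male C57Bl/6J mice, 12 weeks old. In the injured groups a single load had ruptured the anterior cruciate ligament (ACL) of the right knee, and cartilage was taken after 1 day or 7 days from that knee and from the unloaded left knee, called contralateral. Naïve mice were not loaded, and their labels give day 7. Comparisons of day 1 groups with naïve libraries therefore also differ in the labelled day. There were 6 naïve libraries and 3 each of day 1 injured, day 1 contralateral, day 7 injured and day 7 contralateral. Each library was a pool of knees. The study pooled more mice at day 7, where it reports partial loss of cartilage, so pool size may differ between groups. By the study's design the left and right knees of naïve mice went into different pools, so some naïve libraries come from the same animals, which the labels do not match up. All tests count libraries as independent, and p-values measure only the spread between these pools. The study set aside 1 ACL library for low mapping without naming it, and all 18 labelled libraries are used here. The comparisons share control libraries, so they are not independent of each other.

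Each library held between 16074762 and 41794005 estimated counts in total. Levels are given as CPM, the counts scaled to a common library total after TMM normalisation. The 10 genes and their paralogues are compared with each other in TPM, which also allow for transcript length, within a library. Shares from estimated counts are given as an alternative. Those shares and the marker sums in CPM do not allow for length. All 10 chondrocyte markers examined, Acan, Col2a1 and Sox9 among them, were detected in all 18 libraries. Markers of other cell types were present too. In naïve libraries the mean sum was 5130 CPM for chondrocyte, 34649 for erythroid, 13000 for neutrophil and marrow and 8030 for skeletal muscle markers. These sums depend on the genes listed and are not shares of cells. A level given here is that of the whole pool and not of chondrocytes alone. Day 7 contralateral replicate 1 stood apart, with 42.5% of its counts in its 10 leading genes, where no other library had more than 29.8%.

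Promoter sequences show which of these genes carry the letters that HIF reads. RefSeq (GRCm38) gave windows from 250 bases before to 50 bases after the start for 9 of the 10 genes, with 2 starts for Ldha, and none for Epas1. All 10 windows held ACGTG or GCGTG on either strand, as did 43.8% of the 32851 windows of all genes (19.6% held ACGTG and 32.4% GCGTG). Where both strands read ACGTG at overlapping letters, each was counted. The first Ldha window held 7 matches, a number reached by 0.301% of all windows, that of Bnip3 held 5 (1.66%) and that of Pfkp 4 (3.86%). The sequences below are the 250 bases before the start, 5′ to 3′ on the strand of the gene, with matches in capitals. Hif1a is shown as the factor itself, and Slc2a1 as the transporter among the 10, which was called higher at day 7 than in naïve cartilage. Ldha and Pgk1 are shown as enzyme genes that were not called.
Hif1a (chr12:73907617-73907866, plus strand): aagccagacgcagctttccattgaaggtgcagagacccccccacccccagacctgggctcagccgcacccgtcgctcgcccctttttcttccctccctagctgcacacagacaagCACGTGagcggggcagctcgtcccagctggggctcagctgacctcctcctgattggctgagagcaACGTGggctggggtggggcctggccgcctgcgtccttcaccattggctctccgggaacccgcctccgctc
Slc2a1 (chr4:119108495-119108744, plus strand): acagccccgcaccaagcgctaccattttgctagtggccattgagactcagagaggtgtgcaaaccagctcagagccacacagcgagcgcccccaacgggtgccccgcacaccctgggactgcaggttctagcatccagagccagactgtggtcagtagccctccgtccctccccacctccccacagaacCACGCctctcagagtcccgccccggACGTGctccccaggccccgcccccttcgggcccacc
Ldha (chr7:46845554-46845803, plus strand): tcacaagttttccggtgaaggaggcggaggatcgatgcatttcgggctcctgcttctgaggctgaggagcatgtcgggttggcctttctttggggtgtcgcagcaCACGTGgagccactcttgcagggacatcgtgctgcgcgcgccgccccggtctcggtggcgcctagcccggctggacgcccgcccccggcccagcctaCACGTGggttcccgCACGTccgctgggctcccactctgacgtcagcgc
Pgk1 (chrX:106186850-106187099, plus strand): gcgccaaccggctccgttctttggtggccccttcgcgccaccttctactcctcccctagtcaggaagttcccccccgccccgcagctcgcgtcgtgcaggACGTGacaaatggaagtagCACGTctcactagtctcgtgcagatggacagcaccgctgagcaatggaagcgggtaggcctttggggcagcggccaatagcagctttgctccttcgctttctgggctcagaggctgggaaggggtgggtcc
In Hif1a the matches began 135, 134 and 70 bases before the start, and in Slc2a1 61 and 36 bases before it. A match is a run of letters and not a measured site of binding. The RefSeq starts of Hif1a and Ldha lie inside the spans that GENCODE gives these genes, so other starts exist.

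Hif1a and Slc2a1 were called higher in day 7 injured than in naïve cartilage, and none of the 10 was called lower. A gene was called at a false discovery rate (FDR) of at most 0.05 over all genes tested and a change of at least 1.5-fold. The 2 called of 10 stand beside 10.4% of all genes called higher and 6.11% called lower. The median log2 fold change of the 10 was 0.26, against -0.04 over all genes, and 8 of the 10 lay above 0. For Hif1a, Slc2a1 and Pfkp the lowest injured value exceeded the highest naïve value, as it did for 17.4% of all genes, and for none of the 10 was the order the other way round, which 10.8% of all genes showed.

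**Figure D1:**
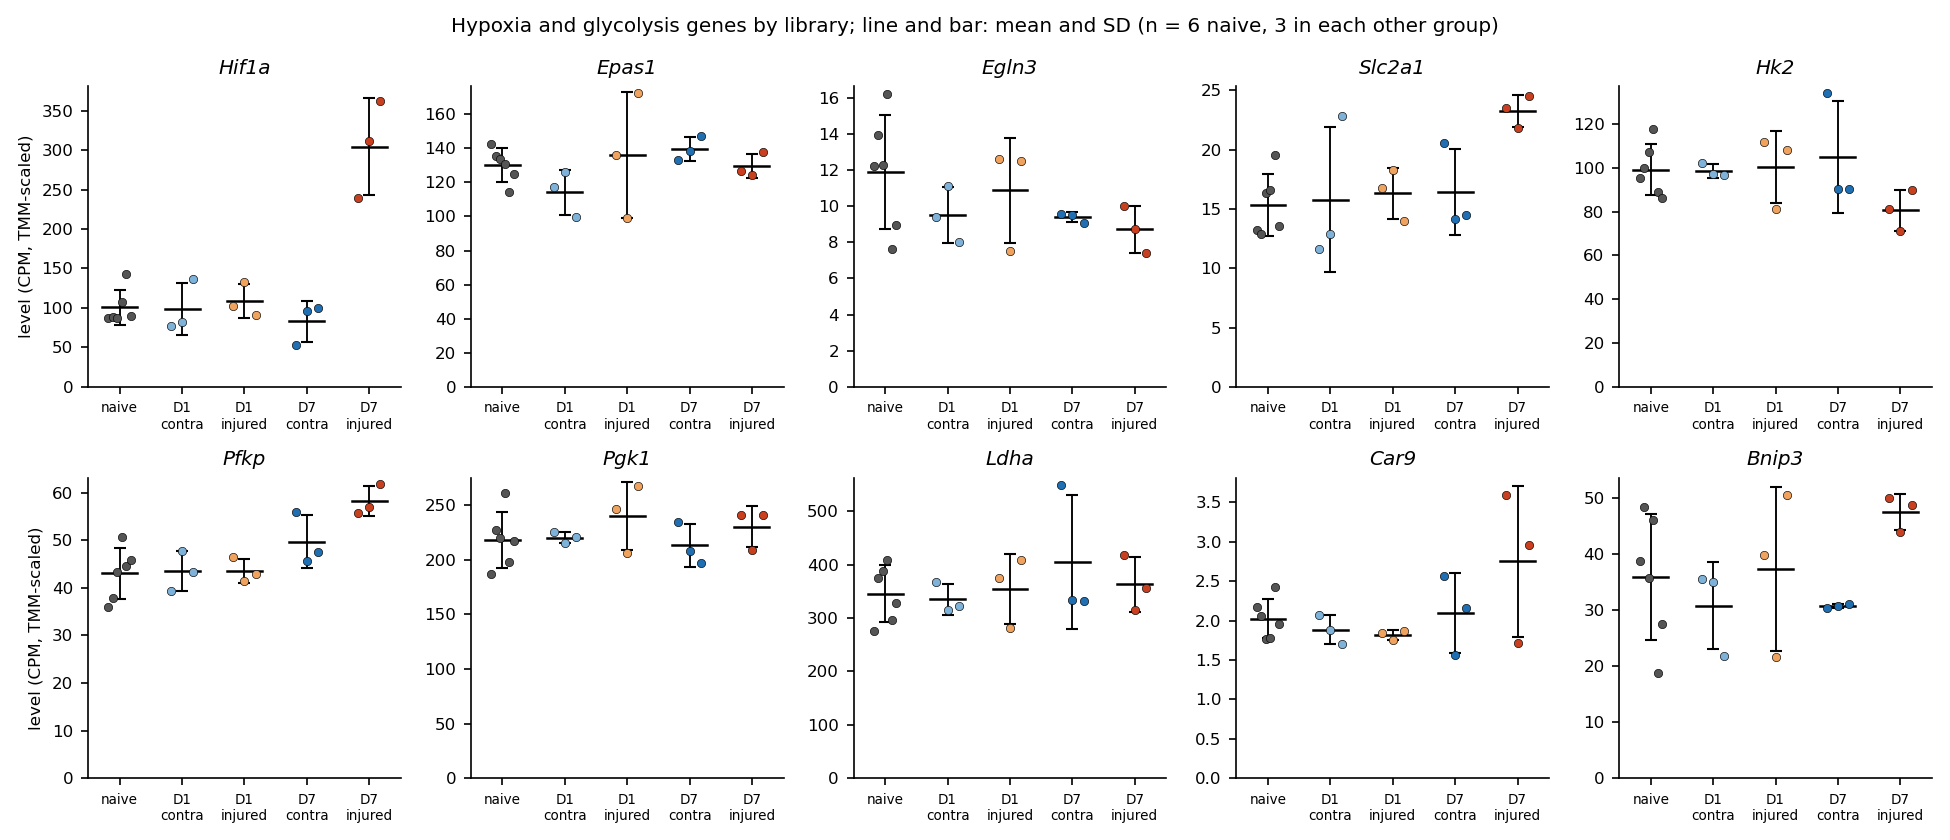
Level of each of the 10 genes in CPM (vertical axis) in each of the 18 libraries, by group, with the mean and SD. The 3 day 7 injured libraries lie above every other library for Hif1a, at 239 to 362 CPM, and overlap the naïve libraries for Epas1, Pgk1 and Ldha.

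Hif1a (ENSMUSG00000021109, GRCm38 chr12:73901375-73947530), the oxygen-labile subunit of HIF-1, changed most of the 10. The naïve libraries held 87.7 to 143 CPM with a median of 88.9, the day 7 injured libraries 239, 311 and 362 CPM, and the day 7 contralateral libraries 52.8, 95.9 and 100.4 CPM. Every day 7 injured library lay above every library of the other groups. The level was 3.06-fold higher than in naïve cartilage, with a 95% interval from 2.27-fold to 4.12-fold (log2 1.61 ± 0.20, SE; FDR = 2.44e-05 by the quasi-likelihood test of edgeR). Against the contralateral knee it was 3.65-fold higher (log2 1.87 ± 0.27, FDR = 9.89e-05 by edgeR), and without contralateral replicate 1 the log2 value was 1.65 (FDR = 0.000499). In bulk RNA, more transcript per cell cannot be told apart from more cells of a type that holds it, and likewise for less.

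At day 1 the Hif1a groups overlapped. The day 1 injured libraries held 102, 133 and 90.9 CPM and the day 1 contralateral libraries 76.5, 82.5 and 137 CPM. The log2 difference of day 1 injured from naïve was 0.11, with a 95% interval from -0.34 to 0.55, and day 7 injured exceeded day 1 injured by 1.503 ± 0.25 (FDR = 0.000529 by edgeR). The difference between injured and contralateral knees was larger at day 7 than at day 1 by 1.73 ± 0.38 on the log2 scale (FDR = 0.0128 by edgeR). Hif1a was the 1 gene of the 10 past the FDR limit in that test, which 3.72% of all genes passed with a higher and 0.287% with a lower effect at day 7. Without day 7 injured replicate 3 the difference was 1.58 and its FDR 0.0524, so the call rests on that library.

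Of the transcripts of Hif1a, the main one, Hif1a-201, made up 63.3% ± 8.95 (SD, n = 6) of the TPM of the gene in naïve and 63.3% ± 5.33 (n = 3) in day 7 injured libraries. The next, Hif1a-202, made up 24.0% ± 4.58 and 29.6% ± 5.08. These shares are given as values, without a test.

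Epas1, which encodes HIF-2α, was not called. The naïve libraries held 114 to 143 CPM with a median of 132, and the day 7 injured libraries 127, 124 and 138 CPM, within that range. The log2 difference was 0.01, with a 95% interval from -0.26 to 0.29 that leaves out a 1.5-fold change in either direction. Hif1a made up 50.2% ± 7.50 (SD, n = 6) of the TPM of the pair in naïve libraries and 74.1% ± 3.25 (n = 3) in day 7 injured ones, which held 70.6%, 74.7% and 77.0%. The highest naïve share was 63.9%. The test counts the 6 naïve libraries as independent, although some come from the same animals. The 2-sided exact permutation test over libraries gave p = 0.0238, the smallest that 3 against 6 can give, and 0.0952 after adjustment over the 8 shares examined, which does not pass 0.05. With estimated counts in place of TPM the adjusted exact p was 0.0476. The day 7 contralateral libraries held 38.9%, 48.8% and 45.9%, where 3 against 3 cannot give an exact p below 0.1.

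Among 17 genes of HIF regulation, Hif1a, Epas1 and Egln3 included, 2 were called higher at day 7 than in naïve cartilage, 1 lower and 14 were not called, with a median log2 fold change of 0.11, beside 10.4% of all genes called higher and 6.11% lower. Besides Hif1a, Arnt2, a partner subunit best known from neurons, rose from 3.86 ± 1.01 (SD, n = 6) to 6.32 ± 0.49 CPM (n = 3; FDR = 0.00694 by edgeR). Hif3a, whose product can oppose the other subunits, fell from 2.51 ± 0.58 to 1.57 ± 0.22 CPM (FDR = 0.0331). Against the contralateral knee Hif1a and Arnt2 were called higher and none of the 17 lower, beside 9.33% of all genes called higher and 3.23% lower.

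Egln3, a hydroxylase that HIF induces in many cells, was not called. The naïve libraries held 7.64 to 16.2 CPM with a median of 12.3, and the day 7 injured libraries 9.99, 8.74 and 7.40 CPM. The injured values lay in the lower part of the naïve range or just below it. The log2 difference was -0.43, with a 95% interval from -0.91 to 0.06, so a 1.5-fold rise lies outside it (FDR = 0.170 by edgeR). Egln3 made up 11.8% ± 2.36 of the TPM of the 3 hydroxylases in naïve and 8.52% ± 1.16 in day 7 injured libraries (exact permutation p = 0.0714, adjusted 0.114). Egln2 led them in naïve libraries at 10.7 TPM, with Egln1 at 7.07 and Egln3 at 2.40 TPM.

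**Figure D2:**
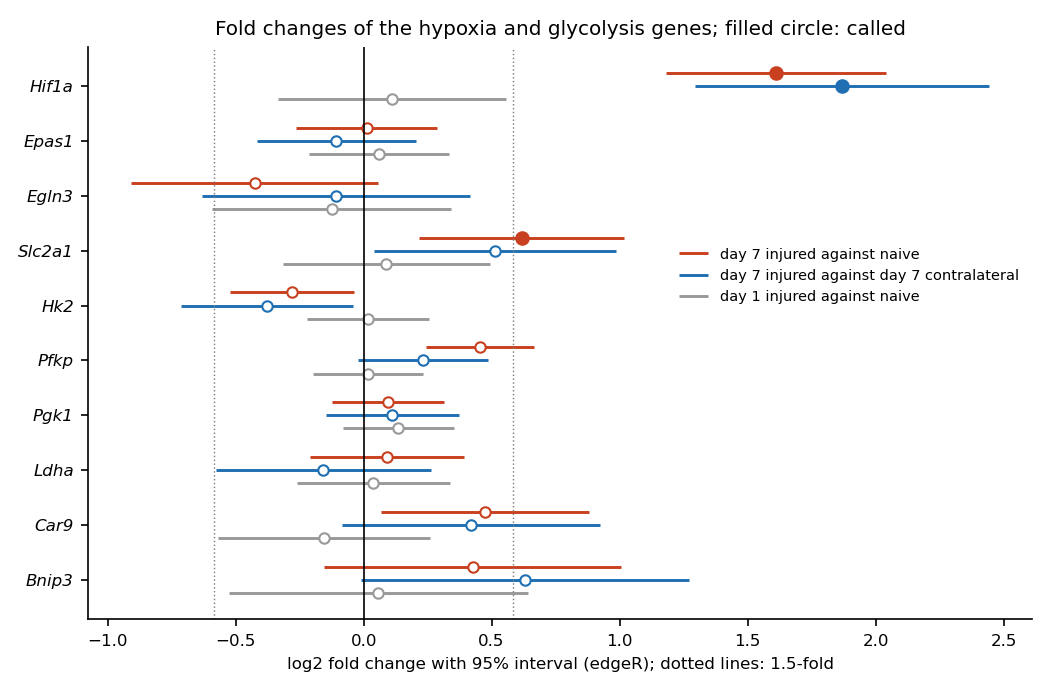
Log2 fold change (horizontal axis) of each of the 10 genes with its 95% interval, in the comparisons named in the legend. Filled symbols are called: Hif1a at day 7 in each comparison shown, and Slc2a1 against naïve.

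Slc2a1 (ENSMUSG00000028645, GRCm38 chr4:119108711-119137983) encodes GLUT1, a glucose transporter of the plasma membrane and a standard HIF target. The naïve libraries held 12.9 to 19.5 CPM with a median of 14.9, and the day 7 injured libraries 23.5, 21.9 and 24.5 CPM. All 3 lay above the naïve range, and among the other groups 1 day 1 contralateral library reached 22.8 CPM. The difference was 1.53-fold (log2 0.62 ± 0.19, FDR = 0.0222 by edgeR), just past the fold limit. The call was lost without naïve replicate 1, 2 or 6, where the log2 value was 0.58, 0.57 and 0.58, and without day 7 injured replicate 1 or 3, where it was 0.61 and 0.58. It was also lost when protein-coding transcripts alone were counted, at 0.39 (FDR = 0.171). The transcript Slc2a1-204, annotated for nonsense-mediated decay, made up 26.3% ± 8.32 (SD, n = 6) of the TPM of the gene in naïve and 31.3% ± 9.56 (n = 3) in day 7 injured libraries, and the main coding transcript 58.4% ± 9.27 and 52.5% ± 12.96. Against the contralateral libraries, at 20.6, 14.1 and 14.5 CPM, the log2 difference was 0.51 ± 0.22 (FDR = 0.127).

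Slc2a1 made up 8.42% ± 3.02 (SD, n = 6) of the TPM of the class I glucose transporters in naïve and 18.2% ± 1.01 (n = 3) in day 7 injured libraries. The injured libraries held 17.005%, 18.9% and 18.6%, above the naïve range of 6.23% to 14.5%, and the day 7 contralateral libraries 7.06%, 7.09% and 7.21%. The exact permutation test against naïve gave p = 0.0238, adjusted to 0.0952, and 0.0476 after adjustment with estimated counts. The rest of the class was mostly Slc2a3, a high-affinity transporter also found in blood cells, and Slc2a4, the insulin-responsive transporter of muscle and fat. Slc2a3 stood at 141 ± 11.9 CPM in naïve and 100.1 ± 15.1 CPM in day 7 injured libraries, a log2 difference of -0.48 (FDR = 0.00278 by edgeR) under the fold limit, and against the contralateral knee it fell by 0.72 (FDR = 0.000318). Slc2a4 stood at 61.3 ± 19.2 and 31.9 ± 6.60 CPM (FDR = 0.0650). The summed neutrophil and marrow markers ran from 10828 to 15929 CPM in naïve and from 8502 to 11583 CPM in day 7 injured libraries, with 2 of 10 called lower. The adipocyte markers ran from 320 to 1018 CPM and from 216 to 307 CPM, without overlap, with 6 of 10 called lower, and the skeletal muscle markers from 3614 to 12327 CPM and from 2924 to 6169 CPM. Over all genes 6.11% were called lower against naïve. The part of these cell types in this share was not tested.

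Of 15 genes of glucose and lactate transport, 3 were called higher at day 7 than in naïve cartilage, 1 lower and 11 were not called, with a median log2 fold change of -0.02, beside the same 10.4% and 6.11% of all genes. Besides Slc2a1, Slc2a10, linked to the integrity of arteries, rose from 5.66 ± 0.91 to 17.95 ± 1.74 CPM (3.21-fold, FDR = 1.26e-06 by edgeR). Slc2a13, a transporter of myo-inositol, rose from 8.36 ± 0.62 to 22.2 ± 3.01 CPM (2.68-fold, FDR = 9.83e-08). Slc2a5, the fructose transporter, fell from 1.063 ± 0.32 to 0.53 ± 0.25 CPM (FDR = 0.0444), on 8 to 13 counts per injured library.

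None of the 4 glycolytic enzymes among the 10 was called. Hk2, the inducible hexokinase that traps glucose in the cell, held 86.1 to 118 CPM in naïve libraries with a median of 97.4, and 81.0, 71.1 and 89.8 CPM in day 7 injured ones. The day 7 contralateral libraries held 134, 90.1 and 90.4 CPM, all above the injured ones. The log2 difference from naïve was -0.28, with a 95% interval from -0.52 to -0.04 (FDR = 0.0772 by edgeR), and from the contralateral knee -0.38 (FDR = 0.113). Hk2 made up 15.4% ± 1.63 of hexokinase TPM in naïve and 14.97% ± 2.17 in day 7 injured libraries (exact permutation p = 0.714). Hk1, the widespread form, and Hk3, found in myeloid cells, stood at 30.6 and 25.4 TPM in naïve libraries, against 10.2 TPM for Hk2.

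Pfkp, the platelet form of phosphofructokinase at the committed step, passed the FDR limit and not the fold limit. The naïve libraries held 36.0 to 50.6 CPM with a median of 44.0, and the day 7 injured libraries 55.8, 57.1 and 61.9 CPM, all above the naïve range. The difference was 1.37-fold (log2 0.45 ± 0.10, FDR = 0.00301 by edgeR). Against day 1 injured libraries it was 0.44 on the log2 scale (FDR = 0.0137), and against the contralateral libraries, at 56.0, 45.6 and 47.5 CPM, it was 0.23 (FDR = 0.206). Pfkp made up 12.9% ± 4.68 of phosphofructokinase TPM in naïve and 20.2% ± 3.35 in day 7 injured libraries (exact permutation p = 0.0714, adjusted 0.114). Most of the rest was Pfkm, the muscle form, at 76.8% and 65.3% of that TPM. The summed skeletal muscle markers ran from 3614 to 12327 CPM in naïve and from 2924 to 6169 CPM in day 7 injured libraries. Of these markers 1 of 10 was called lower, beside 6.11% of all genes. The part of muscle in this share was not tested.

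Pgk1, which makes the first ATP of the pathway, and Ldha, which turns pyruvate into lactate, did not pass the test. Pgk1 held 187 to 261 CPM in naïve libraries with a median of 218, and 241, 209 and 241 CPM in day 7 injured ones. Ldha held 276 to 409 CPM in naïve libraries with a median of 351, and 418, 315 and 356 CPM in injured ones. The groups overlapped for both genes. The log2 differences were 0.10 for Pgk1 (95% interval -0.12 to 0.31) and 0.09 for Ldha (-0.21 to 0.39), intervals that leave out a 1.5-fold change. Ldha made up 97.2% ± 1.54 of Ldha and Ldhb TPM in naïve and 98.0% ± 0.51 in day 7 injured libraries (exact permutation p = 0.381). Processed pseudogenes could take a few reads of both, the largest being Pgk1-rs7 with group means of 9.83 to 61.6 counts.

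Of 24 glycolytic enzymes 23 were tested, and at day 7 against naïve 1 was called higher, 1 lower and 21 were not called, beside 10.4% and 6.11% of all genes. The median log2 fold change was -0.16, and 9 of the 23 lay above 0. Eno2, an enolase best known from neurons, rose from 1.47 ± 0.30 to 3.71 ± 0.31 CPM (2.55-fold, FDR = 0.000145 by edgeR). None of 22 genes that control glycolysis and its branches was called by edgeR, with a median of -0.24.

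Car9, a carbonic anhydrase of the cell surface and a common marker of hypoxic tissue, was the least expressed of the 10. The naïve libraries held 1.76 to 2.43 CPM with a median of 2.01, and the day 7 injured libraries 3.59, 1.71 and 2.96 CPM. Of the injured libraries 2 lay above the naïve range and 1 below it. The log2 difference was 0.47 ± 0.19 (FDR = 0.0739 by edgeR). Leaving out each library gave 0.24 to 0.71, the highest without day 7 injured replicate 2 (FDR = 0.00658 by edgeR). Other alternatives of processing gave 0.19 to 0.48, and Car9 was not called in them. Its relative Car12 rose from 10.004 ± 1.58 to 19.1 ± 3.87 CPM (FDR = 0.000185). Car9 made up 30.6% ± 4.62 of the TPM of the pair in naïve and 22.2% ± 9.49 in day 7 injured libraries (exact permutation p = 0.119, adjusted 0.159).

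Bnip3 encodes a mitochondrial protein that promotes mitophagy and is a classical HIF target. The naïve libraries spread from 18.9 to 48.5 CPM with a median of 37.3, and the day 7 injured libraries held 49.996, 43.9 and 48.8 CPM. The upper naïve libraries reached the injured ones. The log2 difference was 0.43 ± 0.27 (FDR = 0.254 by edgeR). The day 7 contralateral libraries held 30.4, 30.7 and 31.1 CPM, all below the injured ones, with a log2 difference of 0.63 ± 0.30 (FDR = 0.169), and with only those 2 groups in the fit the FDR was 0.00757. Bnip3 took 11.4% ± 3.68 of the TPM of Bnip3 and Bnip3l in naïve and 18.3% ± 2.29 in day 7 injured libraries (exact permutation p = 0.0476, adjusted 0.114). Bnip3l has a role in clearing mitochondria from maturing red cells. The summed erythroid markers ran from 30927 to 41443 CPM in naïve and from 16761 to 27599 CPM in day 7 injured libraries. Of these markers 5 of 9 were called lower, beside 6.11% of all genes. The part of erythroid cells in this share was not tested.

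**Figure D3:**
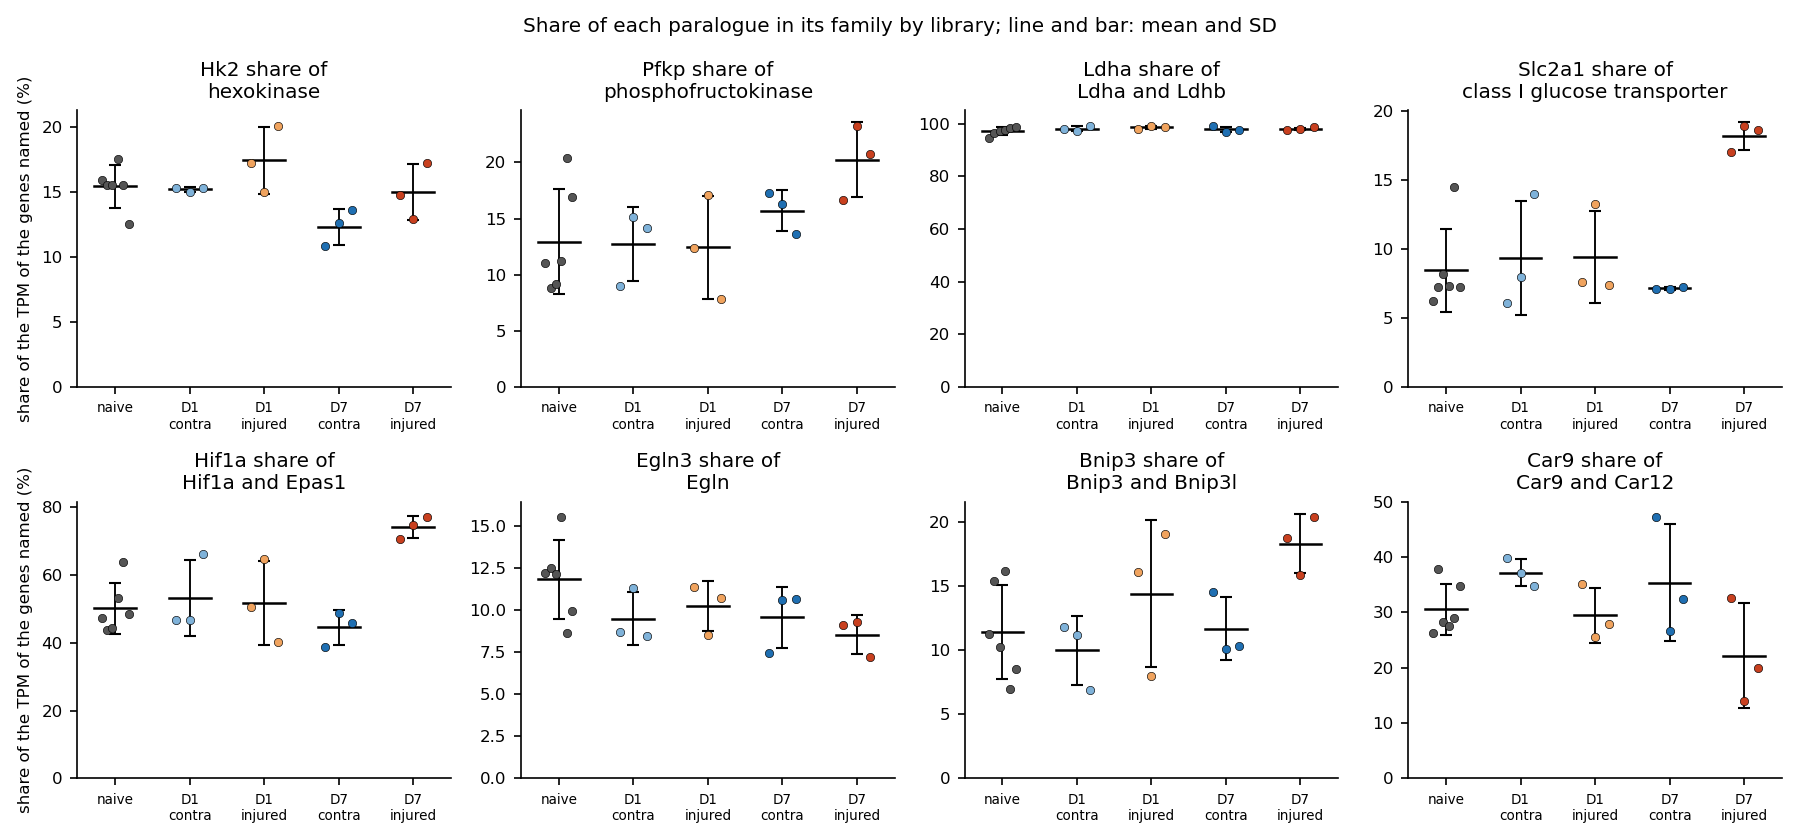
Share in percent (vertical axis) of each gene in the TPM of its family, by library and group, with the mean and SD. For Hif1a and Slc2a1 the 3 day 7 injured libraries lie above all others, at 70.6% to 77.0% and 17.005% to 18.9%.

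Against the day 7 contralateral knee Hif1a was the 1 gene of the 10 called, beside 9.33% of all genes called higher and 3.23% called lower. All injured libraries lay above all contralateral ones for Hif1a, Slc2a1 and Bnip3 and below them for Hk2, beside 18.6% and 14.3% of all genes. Against day 1 injured cartilage Hif1a was again the 1 gene called, beside 9.04% of all genes called higher and 6.38% lower.

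At day 1 and between control groups none of the 10 was called. Day 1 injured against naïve, day 1 injured against day 1 contralateral, day 1 contralateral against naïve and day 7 contralateral against naïve gave 0% of all genes called by edgeR, and none of the 10 had an unadjusted p under 0.05 in edgeR, DESeq2 or limma-voom. Over all genes, edgeR gave 959, 1383, 554 and 3220 genes at that unadjusted level, DESeq2 called 0, 0, 1 and 18 genes higher and 15, 0, 1 and 13 lower, and limma-voom called 0. Between the contralateral groups of day 7 and day 1, 0.0141% of all genes were called higher and 0.0047% lower, none of them among the 10, where edgeR gave 2638 genes at an unadjusted p under 0.05 and none of the 10, DESeq2 called 70 and 10 genes and limma-voom 0. The widest log2 difference of the 10 between day 1 injured and naïve was -0.15, for Car9.

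In naïve libraries the order of the 10 by TPM was Ldha (127 ± 19.4), Pgk1 (67.2 ± 8.13), Hif1a (13.1 ± 4.02), Bnip3 (13.1 ± 3.76), Epas1 (12.6 ± 1.55), Hk2 (10.2 ± 1.68), Pfkp (8.62 ± 1.35), Slc2a1 (3.27 ± 0.90), Egln3 (2.40 ± 0.58) and Car9 (0.764 ± 0.141). Hif1a lay above Bnip3 in 2 of 6 libraries and Bnip3 above Epas1 in 4 of 6, so these 3 were not separated, and Hk2 lay above Pfkp in 5 of 6. In day 7 injured libraries Hif1a ranked 3 at 30.6 ± 9.68 TPM, above Bnip3 at 13.7 ± 1.77 TPM in 3 of 3 libraries.

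Outside the day 7 groups, 3 libraries had high Hif1a and Slc2a1 beside low Bnip3, Epas1 and Egln3. Naïve replicate 5 held 143 CPM of Hif1a, the highest of its group, and 18.9 CPM of Bnip3, the lowest. Day 1 contralateral replicate 3 held 137 and 21.9 CPM, and day 1 injured replicate 2 held 133 and 21.6 CPM, again the highest and lowest of their groups. In the same order of libraries, Slc2a1 was the highest of each group, at 19.5, 22.8 and 18.2 CPM. Epas1, at 114, 99.6 and 98.9 CPM, and Egln3, at 7.64, 7.99 and 7.53 CPM, were the lowest. The same 3 libraries had the lowest summed skeletal muscle markers of their groups, at 3614, 5356 and 4081 CPM. They also had the lowest summed adipocyte markers, at 320, 329 and 248 CPM, and the lowest osteoclast markers, at 1060, 1121 and 1238 CPM. The libraries were named for their extreme values, and in a group of 3 libraries 1 is always the lowest. No other marker list was lowest in all 3 libraries. The summed erythroid markers were the highest of the group in the day 1 contralateral and day 1 injured library, at 40105 and 34154 CPM, and not in naïve replicate 5, at 31131 CPM. The part of these cell types in the levels was not tested.

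The HIF targets examined were chosen with earlier results of these data known, so their count is a description and not a test. Of 38 known HIF targets, 7 of them among the 10, 12 were called higher at day 7 than in naïve cartilage and none lower by edgeR. Over all genes 10.4% were called higher and 6.11% lower, and 26 of the 38 were not called. Against the day 7 contralateral knee 11 were called higher and 2 lower, beside 9.33% and 3.23% of all genes. The 2 lower ones were Slc2a3 and Tfrc, the transferrin receptor, which was named after its values were seen. In the comparison with naïve cartilage the median log2 fold change of the 38 was 0.30, against -0.04 over all genes. Without the 7 it was 0.30, with 11 of 31 called higher. The 6 called genes furthest up follow. Loxl2 and Lox, oxidases that crosslink collagen, rose from 81.0 ± 16.7 to 590 ± 116 CPM (7.36-fold, FDR = 2.15e-08 by edgeR) and from 132 ± 61.4 to 628 ± 120 CPM (4.81-fold, FDR = 0.000393). P4ha2 and Plod2, which hydroxylate it, rose from 15.1 ± 2.36 to 84.9 ± 6.75 CPM (5.70-fold, FDR = 3.67e-09) and from 75.8 ± 8.34 to 345 ± 71.3 CPM (4.61-fold, FDR = 1.84e-08). Igfbp3, a binding protein for insulin-like growth factors, rose 4.78-fold (FDR = 2.17e-07), and Ndufa4l2, a mitochondrial protein, 3.76-fold (FDR = 6.70e-06).

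**Figure D4:**
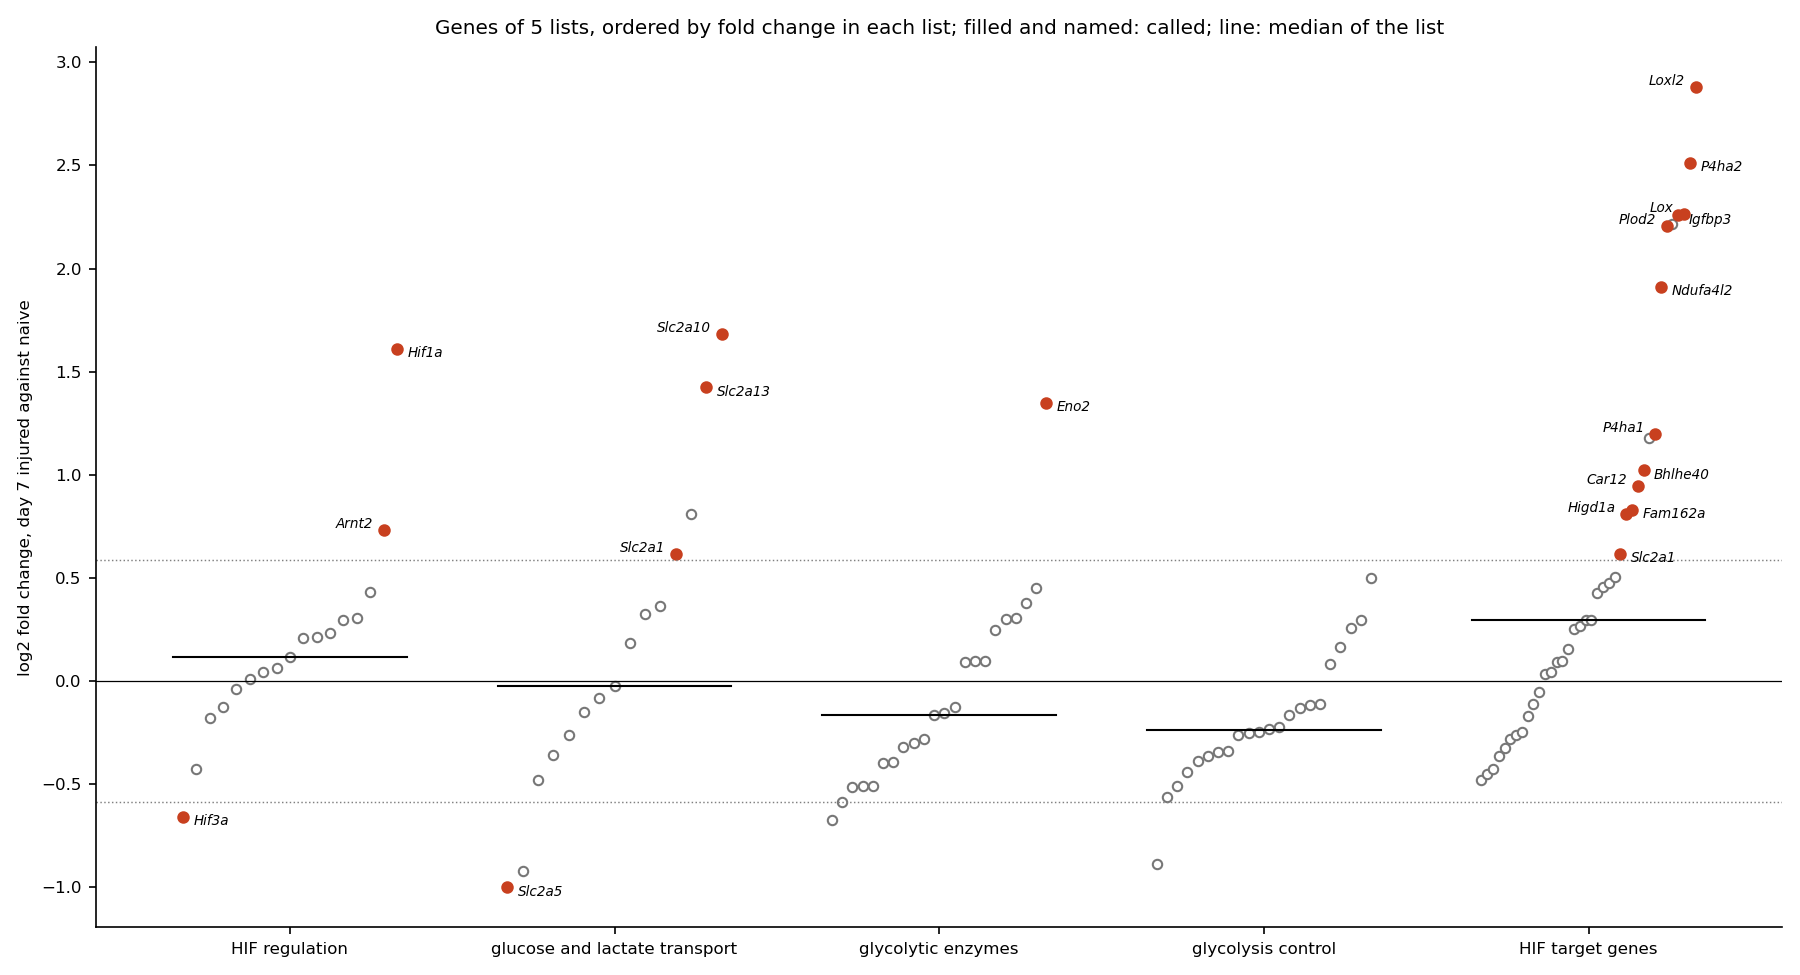
Log2 fold change of day 7 injured against naïve for the genes of 5 lists, each circle a gene, with the median of each list. Filled circles are called, 12 of them among the 38 HIF targets, and 1 of the 23 glycolytic enzymes tested is not drawn.

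Some markers of other cell types differed in level between the groups. The summed markers of synovial and other fibroblasts ran from 7340 to 11691 CPM in naïve, from 11027 to 31189 CPM in day 7 contralateral and from 51383 to 57746 CPM in day 7 injured libraries, with 5 of 10 called higher against naïve. Most of that sum was Col1a2 and Col3a1, at 27641 and 22659 CPM in the day 7 injured mean. Clic5, Cd55, Dpp4 and Pi16 were not called against naïve, at log2 differences of -0.25, 0.19, -0.08 and 0.11. Pdpn was not called against naïve either, at 1.69 (FDR = 0.0947 by edgeR). It was called higher against day 7 contralateral libraries, at 2.74 (FDR = 0.0396). The chondrocyte markers ran from 4096 to 7624 CPM in naïve and from 7258 to 8289 CPM in day 7 injured libraries, with 4 of 10 called higher. Of the osteoblast and osteocyte markers 2 of 10 were called higher and 2 lower, of the endothelial markers 5 of 10 higher, of the adipocyte markers 6 of 10 lower and of the osteoclast markers 1 of 8 higher. None of 10 macrophage and none of 10 proliferation markers was called by edgeR. These counts are against naïve libraries, where 10.4% of all genes were called higher and 6.11% lower. The part of these cell types in the levels of the 10 genes and of the HIF targets was not tested.

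The genes whose profile over the 18 libraries lay nearest to each of the 10 are given as a description, by the root mean square difference of centred log2 CPM. For Hif1a these were Sec24d, Steap2 and Myof, at 0.16, 0.16 and 0.17, against a spread of 0.70 for Hif1a itself. For Slc2a1 they included Adam15 and B3gnt3, at 0.11 and 0.13, against 0.33. For Bnip3 they were Clmn, Lynx1 and Klf9, at 0.14, 0.15 and 0.15, against 0.43. The nearest 3 were Ppfibp2, Agap1 and Ablim1 for Epas1, Galnt15, Ppip5k1 and Idh3a for Egln3, Stim1, Tex2 and Hif1an for Hk2, and Scarb2, Fbxw11 and Tmem63a for Pfkp. They were Mospd1, Sypl and Usp47 for Pgk1, Akt2, Park7 and Gnpat for Ldha, and Slc35a1, Homer3 and Nt5m for Car9.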

How the data were processed

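Ribosomal-RNA-depleted stranded total RNA libraries of 18 cartilage pools were sequenced. The authors trimmed reads and quantified transcripts against mouse GRCm38 with Kallisto, and deposited estimated counts, effective lengths and TPM for each transcript. GEO's build field names a human build, but the identifiers are mouse. Here transcripts were matched to GENCODE M21 (135107 of 137436, with 0.667% to 3.90% of counts unmatched), estimated counts were summed per gene and rounded, and TPM were summed.

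Groups came from the sample labels. Genes passing filterByExpr were scaled by TMM and compared in edgeR 4.0.16 under R 4.3.3 by its quasi-likelihood test, over 15 libraries for comparisons without day 7 contralateral samples and over all 18 otherwise, with Benjamini-Hochberg adjustment over all genes tested. Calls needed FDR of at most 0.05 and 1.5-fold, or FDR alone for the difference of injury effects. The authors' model with duplicate correlation could not be repeated, because the labels do not say which libraries share mice. Paralogue shares were compared by exact permutation tests (scipy 1.17.1).

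Alternatives were DESeq2 1.42.0 and its size factors, limma-voom (limma 3.58.1), no filter, length offsets, protein-coding transcripts, other groups fitted, other limits and leaving out each library. The scripts were tested on simulated data. Named are all 10 genes, their paralogues in the shares, up to 6 genes called in each direction per pathway list at day 7 against naïve, and the nearest 3 profiles among genes of at least 5 CPM. The genes and lists were chosen with earlier results of these data known. Promoters are RefSeq, GRCm38. Totals of 16074762 to 41794005 counts per library set the precision. Ahsp was not analysed here, and some genes the rule would name are not reported here.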

Additional observations from a re-analysis of the deposited data

Results flagged for a closer look

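Chance alone marks about 1 in 20 groups as holding an outlying sample, and 2 of the 18 naïve sets of values examined did. In naïve replicate 5 Hif1a stood at 143 CPM, far from the other 5 naïve libraries. The same library held the outlying Slc2a1 share of class I glucose transporter TPM, at 14.5%. The injury effect on Hif1a differed between the time points, by 1.73 on the log2 scale, larger at day 7 (FDR = 0.0128 by edgeR).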

How the results depend on the processing

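Of the 10 genes, 2 were called at day 7 against naïve; counting protein-coding transcripts alone or requiring an FDR of 0.01 left 1, and leaving out each library gave 1 to 3, the highest without day 7 injured replicate 2, where Car9 was called. Against day 7 contralateral the 1 call became 2 with transcript length offsets (Slc2a1 added, 0.75, FDR = 0.0452 by edgeR) and 2 with only the compared groups fitted (Bnip3 added). Against day 1 injured it became 2 at the FDR limit alone, and leaving out each library gave 1 to 2, the higher without day 7 injured replicate 2, where Car9 was called (0.87, FDR = 0.00593). For the difference of injury effects the 1 call became 0 at an FDR of 0.01, and leaving out each library gave 0 to 1. With estimated counts in place of TPM the share differences were 7.93 points for Slc2a1, 26.5 for Hif1a, -3.96 for Egln3 and 6.58 for Bnip3, each with an adjusted exact permutation p of 0.0476. No called value changed sign, while values that were not called did under some alternatives. Against day 7 contralateral Car9 went from 0.42 to -0.14 with transcript length offsets and Ldha from -0.16 to 0.15 without day 7 contralateral replicate 1, and the Hk2 share difference from naïve went from -0.45 to 0.57 points without day 7 injured replicate 2. The causes of these changes were not tested. Hif1a was called at day 7 against naïve under every alternative run, at log2 values of 1.47 to 1.76. No paired analysis was possible because the labels give no replicate numbers that tie libraries of different groups. Without a day 7 injured library the smallest exact p of a share is 0.0714.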
